A study of Mus musculus with 16 samples.

Results

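A set of 48 mouse genes of DNA replication and nucleotide supply was followed across B16F10 tumors of lean and obese mice before and after chemotherapy. The members were chosen by their gene symbols for what their products are known to do at the replication fork, and all 48 were found among the 45777 genes of the count table. Each of the 48 had at least 1 count in all 16 tumors and was therefore tested, as were 16209 genes in all. They were grouped by role into 11 licensing genes, 6 genes of helicase activation, 6 of the sliding clamp and its loader, 8 of the polymerases and primase, 4 of Okazaki fragments and single-stranded DNA, 5 of nucleotide supply, 2 of maintenance methylation and 6 of the E2F and cyclin E group.

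B16F10, a melanoma line of C57BL/6 origin, had been grafted under the skin of mice aged 6 weeks, and the same line was used in every group. The lean group were C57BL/6J mice and the obese group were leptin-deficient ob/ob mice, each sampled without treatment (before therapy) or after chemotherapy. The drug was etoposide (ETS), which traps topoisomerase II on broken DNA, given as 5 intraperitoneal injections of 20 mg per kg. The paper describes daily injections with tumors taken a day after the course, and the time at which untreated tumors were taken is not clear. If untreated tumors were taken before dosing began, an effect of ETS cannot be told apart from added days of tumor growth. Each of the 4 groups held 4 tumors, and the 16 tumors gave 47199949 to 61655287 counts each. Whole tumors were sequenced, so each library holds the cancer cells of a single line together with host cells, and fewer cells that copy their DNA cannot be told apart from less RNA of these genes per cell.

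Before a cell copies its DNA, the origin recognition complex, Cdc6 and Cdt1 load the Mcm2 to Mcm7 ring onto origins, and geminin stops this loading from happening again in the same cycle. The ring becomes an active helicase when Cdc45 and the GINS subunits join it, polymerases then copy both strands while the clamp PCNA holds them on DNA, and ribonucleotide reductase, thymidylate synthase and thymidine kinase provide the building blocks. E2F factors and cyclin E turn this set of genes on as cells enter S phase, and S phase is when a topoisomerase poison does much of its damage.

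E2F factors bind promoters at letters such as TTTGGCGC or TTTCGCGC. These letters were searched on both strands of RefSeq promoter sequences of GRCm38.p6 that run from 250 bases before to 50 bases after each annotated start. The table held 38 of the 48 members, and 13 of these 38 genes (34.2%) had a match, against 251 of 27025 genes in the whole table (0.929%). Among its protein-coding genes that are also in the count table, 215 of 17519 (1.23%) had a match. The 13 genes were Mcm3, Mcm5, Mcm6, Mcm7, Cdt1, Orc1, Rfc3, Pola1, Pole2, Lig1, Uhrf1, Dnmt1 and E2f2, with 6 of them in the licensing group and none in the helicase activation or nucleotide supply groups. The promoter table held 9 licensing genes, 3 of helicase activation and 4 of nucleotide supply. Windows of 30 bases are shown for members whose levels are described further on, read on the strand of the gene from 5′ to 3′, with the matched letters in capitals.
Mcm6 (chr1:128359797-128359826, minus strand): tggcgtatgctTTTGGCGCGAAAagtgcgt
Mcm6 (chr1:128359734-128359763, minus strand): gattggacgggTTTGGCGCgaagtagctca
Mcm5 (chr8:75109349-75109378, plus strand): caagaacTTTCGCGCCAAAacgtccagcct
Cdt1 (chr8:122568035-122568064, plus strand): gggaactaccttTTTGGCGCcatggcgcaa
Pole2 (chr12:69228162-69228191, minus strand): cgtcggcggtgGCGCCAAAtcgcgaacatg
Lig1 (chr7:13278841-13278870, plus strand): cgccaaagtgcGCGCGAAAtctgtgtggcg
Uhrf1 (chr17:56304117-56304146, plus strand): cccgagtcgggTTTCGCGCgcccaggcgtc
Rrm2 (chr12:24708008-24708037, plus strand): caccaacctcaGCGGCAAcgcccgcccggc

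Mcm6 had the most matches, with 3, of which 2 overlap on opposite strands in its upper window. In Mcm5, matches on both strands overlap in the same way. Rrm2, the small subunit of ribonucleotide reductase, had no match of the longer letters and is shown with the TTGCCGC of a shorter family. This family also held TTGGCGC and TTCGCGC, both of which lie inside the longer letters, as well as the letters TTCCCGC. It occurred in 25 of the 38 members (65.8%), in 10.9% of all genes in the table and in 13.8% of the protein-coding ones. The letters CCAAT were found in 65.8% of the members and 41.1% of all genes, and TTTGAA, found in many genes of mitosis, in 21.1% and 20.2%. Among the protein-coding genes, CCAAT was found in 42.3% and TTTGAA in 18.4%. These matches describe letters in a window and were not tested as binding sites.

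In lean tumors, most of the replication genes were lower after ETS. The test called 40 of the 48 members lower and none higher, where the same test called 22.8% of all tested genes lower and 21.0% higher. The median log2 fold change of the members was -0.65, a 1.57-fold fall, while that of all tested genes was -0.015. Uhrf1 fell the most, by 2.53-fold, followed by Gins1, E2f8 and Pole, and these 4 were the members that fell by 2-fold or more, beside 9.36% of all tested genes, a share close to that of the members. The 8 members that were not called were Gins4, Rfc2, Rpa1, Rrm1, Rrm2b, E2f1, Ccne1 and Ccne2. In the same edgeR test at an unadjusted p under 0.05, 0 members were higher, against 25.0% of all tested genes, while DESeq2 called 0 and the exact test of edgeR called 1, Ccne1. All 4 treated tumors lay below all 4 untreated ones in 40 members, where 20.3% of all tested genes did so.

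In obese tumors, 42 of the 48 members were called lower and none higher, where 19.0% of all tested genes were called lower and 21.2% higher. The median log2 fold change of the members was -0.70, a 1.62-fold fall, beside 0.0067 for all tested genes. Pole2 fell the most, by 2.47-fold, and Gins1, Rfc4, Prim1 and E2f7 also fell by 2-fold or more, beside 2.62% of all tested genes. With edgeR's unadjusted p under 0.05, 0 members were higher, against 25.8% of all tested genes, and DESeq2 and the exact test also called 0. The 6 members that were not called were Gins4, Rpa1, Rrm2b, E2f1, E2f2 and Ccne1. The treated and untreated tumors did not overlap, with the treated ones lower, in 38 members, where this held for 17.7% of all tested genes.

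The calls of both hosts met in 39 members, while Rfc2, Rrm1 and Ccne2 were called in obese tumors and not in lean ones, and E2f2 in lean tumors and not in obese ones. Gins4, Rpa1, Rrm2b, E2f1 and Ccne1 were called in neither host. Of the 48 members, 28 had the larger fall in obese tumors and 20 in lean tumors. With log2(TPM + 1) in place of scaled counts, the median of all genes moved to -0.28 in lean and -0.052 in obese tumors. The median of the members relative to it was -0.73 in both.

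**Figure D1:**
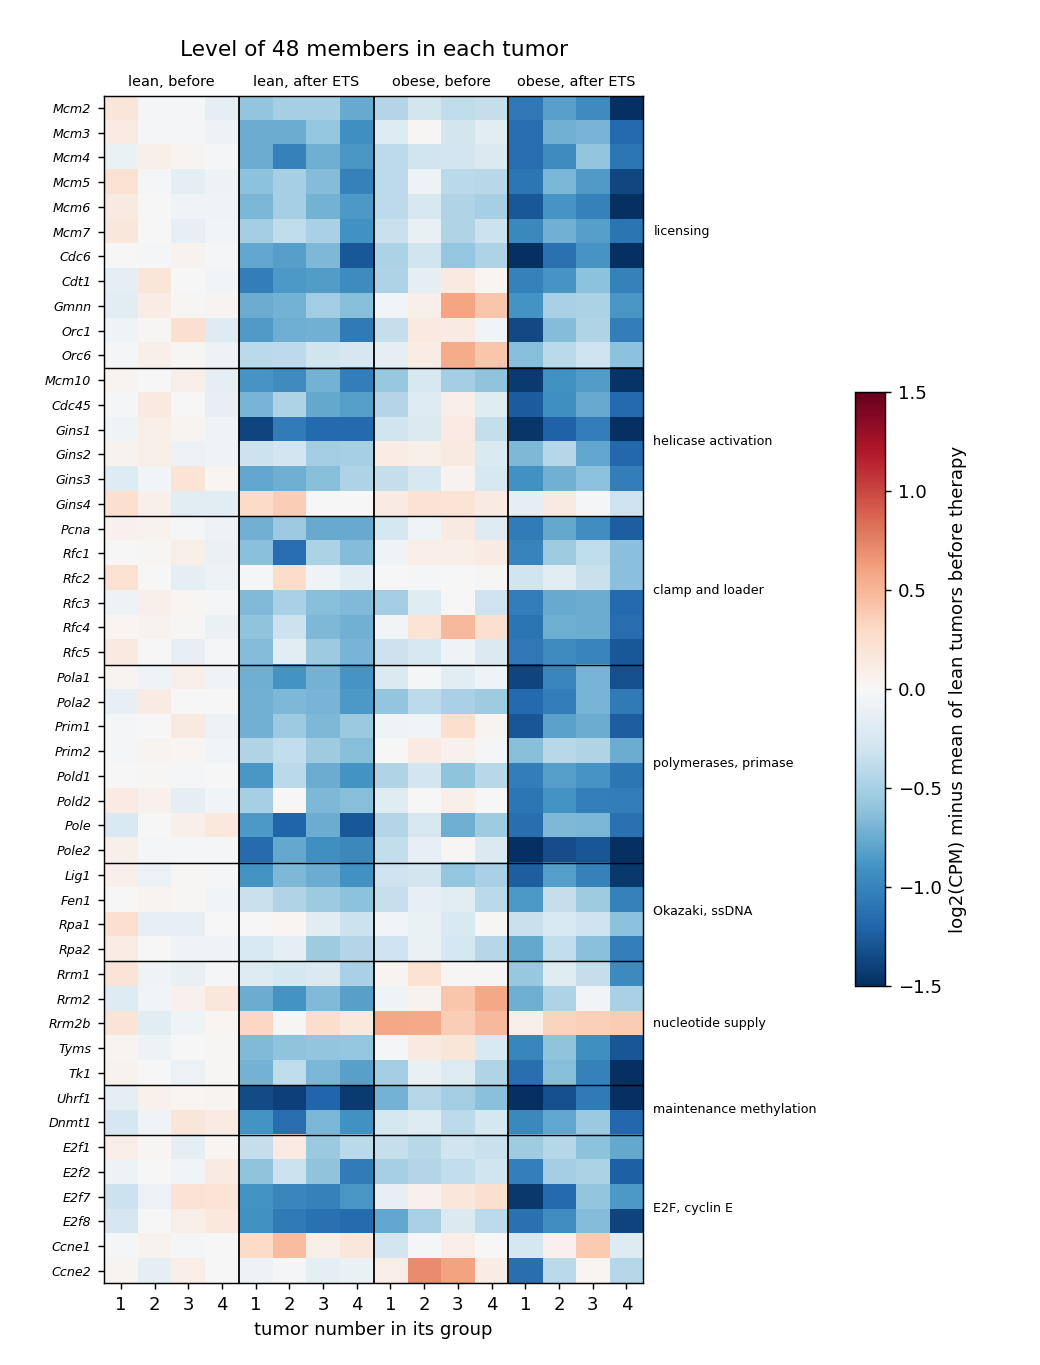
Level of the 48 members (rows, by role) in each of the 16 tumors (columns), as log2 CPM minus the mean of the lean tumors before therapy, with blue for lower and red for higher. Blue fills nearly all rows in both ETS groups, and the rows of Gins4, Rfc2, Rpa1, Rrm2b and Ccne1 stay pale or red.

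**Figure D2:**
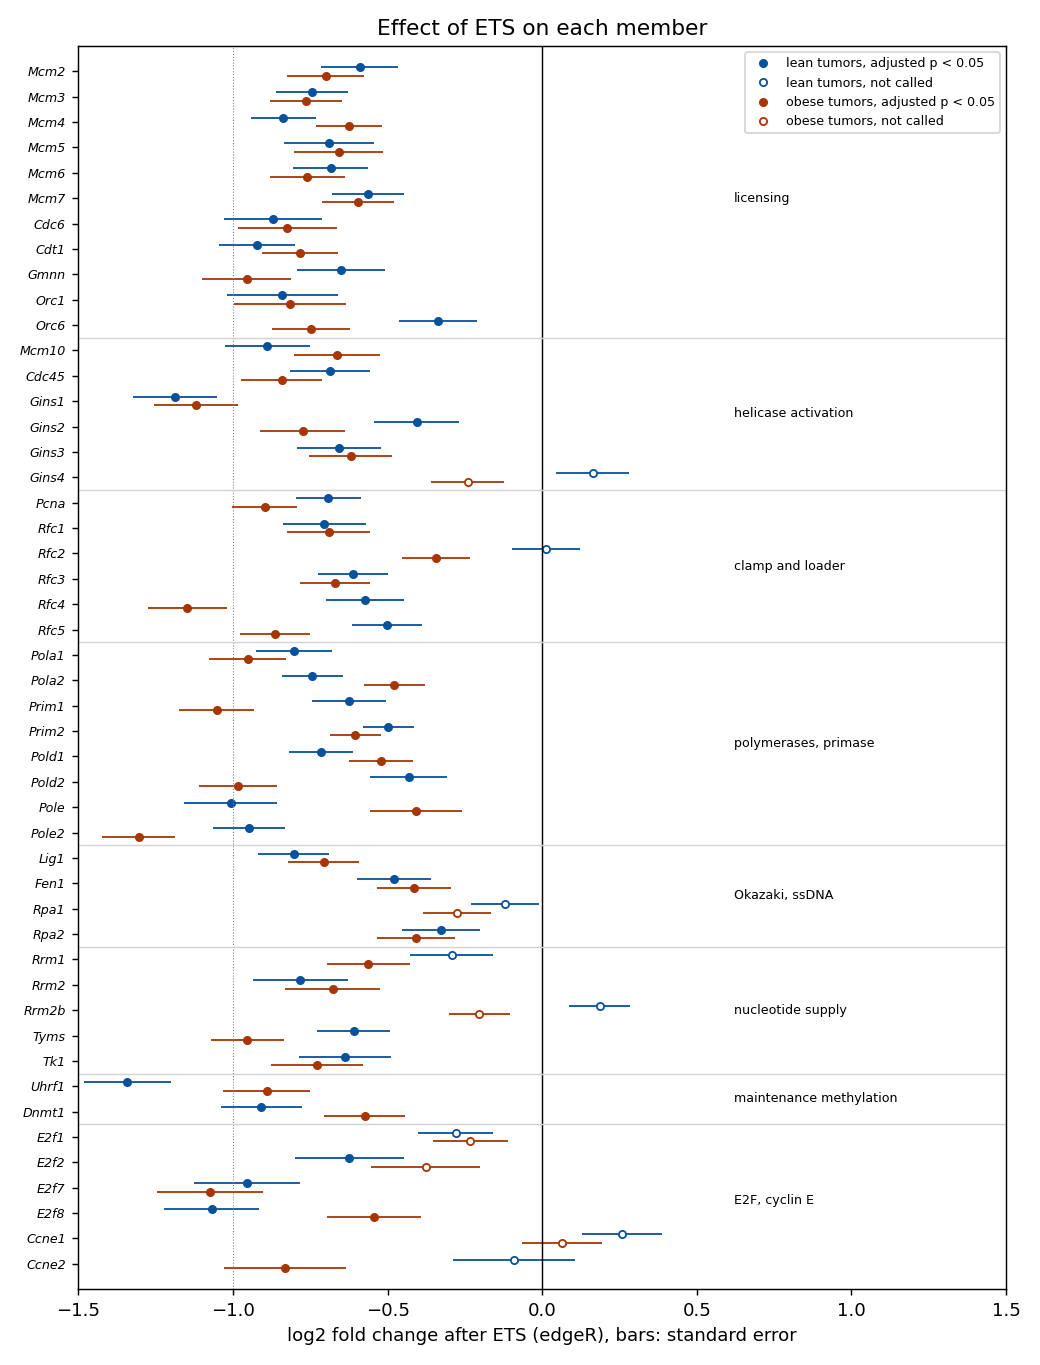
The log2 fold change after ETS of each member in lean (blue) and obese (brown) tumors with its standard error, where filled points passed an adjusted p of 0.05 and the dotted line marks a 2-fold fall. The points lie between -1.34 and 0.26, and none to the right of 0 is filled.

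**Figure D3:**
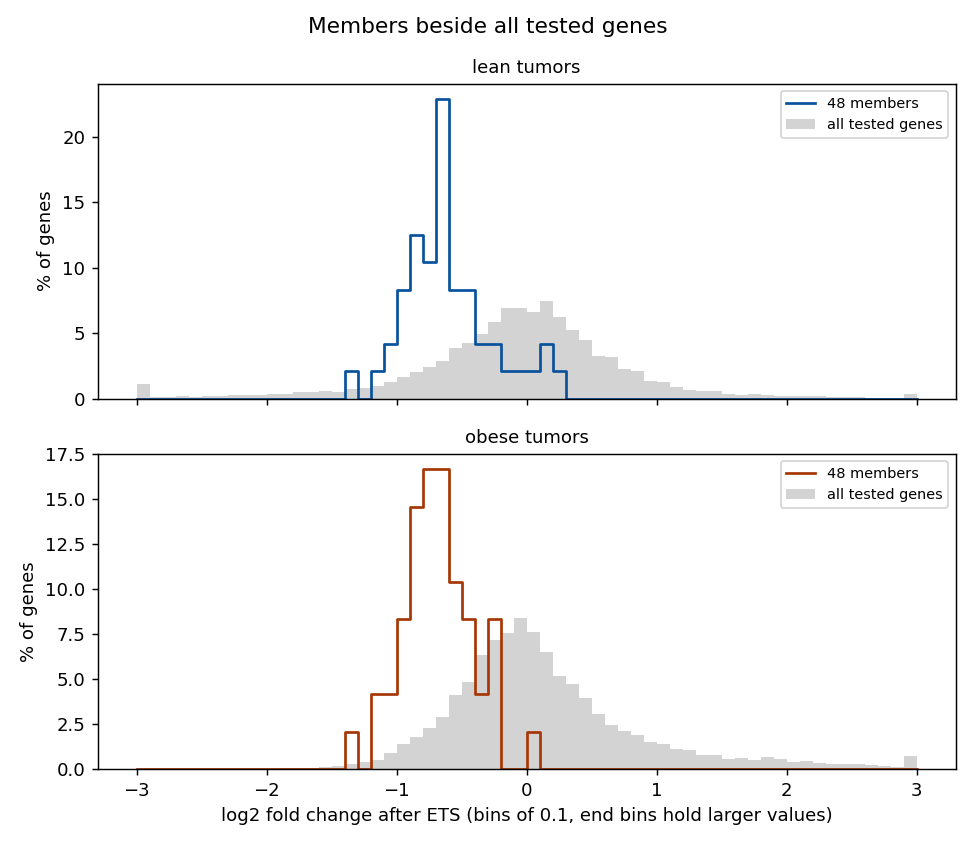
Share of genes in each bin of 0.1 of the log2 fold change after ETS, for all 16209 tested genes (grey) and the 48 members (line), in lean and obese tumors. The members sit to the left of the bulk of all genes, with medians of -0.65 and -0.70.

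All 11 licensing genes fell in both hosts, with a median log2 fold change of -0.69 in lean and -0.76 in obese tumors. Levels are given as counts per 1000000 counts of the scaled library (CPM) with the tumors in the order of their numbers, and errors of fold changes are standard errors. Mcm2 (Entrez 17216, chr6:88883474-88898780, minus strand), a subunit of the helicase ring, had 506, 438, 438 and 407 CPM in the lean tumors before therapy and 295, 315, 315 and 263 CPM in those after ETS. Mcm2 in obese tumors had 328, 369.8, 344 and 347 CPM before therapy and 212, 255, 232 and 156 CPM after ETS. The treated tumors were below the untreated ones in each host without overlap, and the tumors of the obese hosts were below those of the lean hosts at both times. Mcm2 fell 1.51-fold in lean tumors (log2 fold change -0.59 ± 0.12, adjusted p = 0.00169) and 1.62-fold in obese tumors (log2 fold change -0.70 ± 0.12, adjusted p = 0.000633).

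Mcm4, the ring subunit with the smallest adjusted p of this group in lean tumors, had 111, 126, 123 and 116 CPM in the lean tumors before therapy and 70.8, 58.9, 71.8 and 65.0 CPM in those after ETS. Mcm4 in obese tumors had 90.9, 96.9, 97.0 and 102 CPM before therapy and 54.0, 61.6, 78.9 and 56.1 CPM after ETS. It did not overlap between treated and untreated tumors of a host, and obese tumor 3 was the highest of its group after ETS. The fall was 1.79-fold in lean tumors (log2 fold change -0.84 ± 0.11, adjusted p = 3.97e-05) and 1.54-fold in obese tumors (log2 fold change -0.63 ± 0.11, adjusted p = 0.000457). The other ring subunits, Mcm3, Mcm5, Mcm6 and Mcm7, fell by 1.67, 1.61, 1.61 and 1.48-fold in lean tumors and by 1.70, 1.58, 1.69 and 1.51-fold in obese ones. The ring holds its 6 subunits in equal number. On the TPM scale, which divides by transcript length, Mcm4 was the lowest and Mcm2 the highest of the 6 in all 16 tumors, with a ratio of 2.96 to 5.70 between them.

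Cdt1, which brings the ring to origins, had 78.3, 97.2, 85.7 and 83.2 CPM in the lean tumors before therapy and 41.7, 47.1, 48.1 and 44.7 CPM in those after ETS. Cdt1 in obese tumors had 62.1, 78.4, 94.0 and 87.8 CPM before therapy and 42.4, 46.4, 55.9 and 42.4 CPM after ETS. Treated tumors of each host were all below the untreated ones, and the 2 hosts overlapped at both times. Geminin (Gmnn), the inhibitor of Cdt1, had 17.2, 21.0, 19.7 and 19.97 CPM in the lean tumors before therapy and 11.6, 11.9, 13.6 and 12.5 CPM in those after ETS. Gmnn in obese tumors had 19.0, 20.7, 29.2 and 25.8 CPM before therapy and 10.4, 13.8, 13.9 and 10.6 CPM after ETS. Its treated tumors were all lower too, and obese tumors 3 and 4 before therapy were the highest of the 16. Cdt1 fell 1.90-fold in lean (log2 fold change -0.92 ± 0.12, adjusted p = 5.67e-05) and 1.72-fold in obese tumors (log2 fold change -0.78 ± 0.12, adjusted p = 0.000254), and Gmnn fell 1.57-fold (log2 fold change -0.65 ± 0.14, adjusted p = 0.00227) and 1.94-fold (log2 fold change -0.96 ± 0.14, adjusted p = 0.000187). The ratio of Cdt1 to Gmnn in TPM was 1.97 ± 0.0918 in untreated and 1.64 ± 0.0884 in treated lean tumors (SD, n = 4), and 1.53 ± 0.116 and 1.72 ± 0.149 in obese tumors.

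Orc6, a subunit of the origin recognition complex, had 34.4, 37.1, 35.7 and 33.3 CPM in the lean tumors before therapy and 26.5, 26.8, 28.5 and 29.4 CPM in those after ETS. Orc6 in obese tumors had 31.7, 38.0, 51.6 and 46.9 CPM before therapy and 22.5, 26.5, 28.3 and 22.9 CPM after ETS. The obese tumors before therapy spanned the widest range, and no treated tumor reached an untreated one of its host. Its fall was 1.26-fold in lean tumors (log2 fold change -0.34 ± 0.13, adjusted p = 0.0406) and 1.68-fold in obese tumors (log2 fold change -0.75 ± 0.13, adjusted p = 0.000451), and the lean call was kept in 16 of 26 alternative settings. The difference between these effects was 0.41 ± 0.18 on the log2 scale, adjusted p = 0.133, which did not pass the test. Orc1, another subunit, fell 1.79-fold and 1.76-fold, and Cdc6, which loads the ring with Cdt1, fell 1.83-fold and 1.77-fold.

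Of the 6 genes of helicase activation, 5 fell in each host and Gins4 was not called in either. Gins1, a GINS subunit, had 16.4, 18.2, 17.7 and 16.4 CPM in the lean tumors before therapy and 6.59, 8.31, 7.66 and 7.62 CPM in those after ETS. Gins1 in obese tumors had 14.0, 14.8, 18.6 and 13.4 CPM before therapy and 6.26, 7.37, 8.33 and 6.06 CPM after ETS. The treated tumors all lay at or below 8.33 CPM and the untreated ones all at or above 13.4 CPM, so the groups stood clear of each other in both hosts. It fell 2.28-fold in lean tumors (log2 fold change -1.19 ± 0.14, adjusted p = 1.68e-05) and 2.17-fold in obese tumors (log2 fold change -1.12 ± 0.14, adjusted p = 4.69e-05). Gins4, which sits in the same complex, had 45.4, 40.4, 34.2 and 34.3 CPM in the lean tumors before therapy and 46.9, 49.4, 38.5 and 38.0 CPM in those after ETS. Gins4 in obese tumors had 41.6, 44.5, 44.3 and 41.6 CPM before therapy and 34.8, 42.1, 37.8 and 31.0 CPM after ETS. Its treated and untreated tumors overlapped in both hosts (log2 fold change 0.16 ± 0.12, adjusted p = 0.274 in lean and log2 fold change -0.24 ± 0.12, adjusted p = 0.115 in obese tumors), and the lean value turned to -0.21 with log2(TPM + 1). The difference between the effects on Gins4 was 0.40 ± 0.17 on the log2 scale, adjusted p = 0.113, also short of the threshold. Gins2 and Gins3, the remaining GINS subunits, fell 1.32-fold and 1.58-fold in lean tumors and 1.71-fold and 1.54-fold in obese ones. Cdc45, which joins GINS on the ring, fell 1.61-fold and 1.79-fold, and Mcm10, which helps to start the helicase, fell 1.85-fold and 1.58-fold.

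The clamp and its loader gave 5 falls of 6 in lean tumors and 6 of 6 in obese tumors. Pcna (Entrez 18538, chr2:132249286-132253180, minus strand), the sliding clamp, had 287, 283, 267 and 257 CPM in the lean tumors before therapy and 166, 187, 162 and 162 CPM in those after ETS. Pcna in obese tumors had 227, 262, 299 and 239 CPM before therapy and 132, 160.2, 143 and 116 CPM after ETS. Every treated tumor was below every untreated one, whichever the host. Pcna fell 1.61-fold in lean tumors (log2 fold change -0.69 ± 0.10, adjusted p = 0.000154) and 1.86-fold in obese tumors (log2 fold change -0.90 ± 0.11, adjusted p = 3.88e-05). In TPM it was the highest of the 48 members in the lean groups and in the obese tumors before therapy, with 467 ± 26.9 TPM in untreated and 222 ± 8.32 TPM in treated lean tumors (SD, n = 4). Rrm2 was the highest in the obese tumors after ETS with 204 ± 63.9 TPM, close to the 201 TPM of Pcna. Pcna was above Rrm2 in tumors 1 and 2 of that group and below it in tumors 3 and 4. The table also lists a processed copy, Pcna-ps2, and reads could be split between such copies.

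Rfc4 (Entrez 106344, chr16:23113948-23127730, minus strand), a subunit of the clamp loader, had 31.3, 31.9, 31.1 and 28.8 CPM in the lean tumors before therapy and 20.3, 24.5, 19.3 and 18.7 CPM in those after ETS. Rfc4 in obese tumors had 29.996, 35.3, 43.1 and 36.2 CPM before therapy and 14.4, 18.6, 18.4 and 14.0 CPM after ETS. Before therapy the obese tumors reached higher than the lean ones and after ETS they all lay below them. Rfc4 fell 1.49-fold in lean tumors (log2 fold change -0.57 ± 0.13, adjusted p = 0.00234) and 2.21-fold in obese tumors (log2 fold change -1.15 ± 0.13, adjusted p = 2.88e-05). The other loader subunits differed in how far they fell. Rfc1, the large subunit, fell 1.63-fold and 1.61-fold, Rfc3 1.53-fold and 1.59-fold, and Rfc5 1.42-fold and 1.82-fold. Rfc2 had log2 fold change 0.011 ± 0.11, adjusted p = 0.944 in lean tumors, and fell 1.27-fold in obese tumors (log2 fold change -0.34 ± 0.11, adjusted p = 0.0225).

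All 8 genes of the polymerases and primase fell in both hosts. Pole2 (Entrez 18974, chr12:69201773-69228205, minus strand), the second subunit of polymerase epsilon, which copies the leading strand, had 27.9, 26.0, 26.0 and 26.2 CPM in the lean tumors before therapy and 11.9, 15.5, 14.0 and 13.5 CPM in those after ETS. Pole2 in obese tumors had 20.6, 24.3, 26.8 and 22.9 CPM before therapy and 8.38, 10.6, 10.9 and 8.46 CPM after ETS. The treated tumors stood well below the untreated ones in each host, and after ETS all obese tumors lay below all lean tumors. Pole2 fell 1.93-fold in lean tumors (log2 fold change -0.95 ± 0.12, adjusted p = 3.22e-05) and 2.47-fold in obese tumors (log2 fold change -1.30 ± 0.12, adjusted p = 7.57e-06), the smallest adjusted p of any member in obese tumors. Its partner Pole, the catalytic subunit, fell 2.01-fold in lean tumors (log2 fold change -1.01 ± 0.15, adjusted p = 0.000141) and 1.33-fold in obese tumors (log2 fold change -0.41 ± 0.15, adjusted p = 0.0404), and the obese call was kept in 13 of 26 settings.

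Pold2 (Entrez 18972, chr11:5872180-5878256, minus strand), the second subunit of polymerase delta, which copies the lagging strand, had 71.2, 68.8, 59.3 and 63.9 CPM in the lean tumors before therapy and 46.4, 65.6, 41.1 and 42.1 CPM in those after ETS. Pold2 in obese tumors had 57.8, 65.2, 69.0 and 65.6 CPM before therapy and 31.0, 35.2, 32.3 and 31.9 CPM after ETS. Lean tumor 2 after ETS lay within the untreated range and the other treated tumors lay below it, while all obese tumors after ETS were at or under 35.2 CPM. It fell 1.35-fold in lean tumors (log2 fold change -0.43 ± 0.12, adjusted p = 0.0116) and 1.98-fold in obese tumors (log2 fold change -0.98 ± 0.13, adjusted p = 6.61e-05). Pold1, the catalytic subunit, fell 1.64-fold and 1.44-fold. Of polymerase alpha with its primase, which lays down each primer, Pola1 fell 1.74-fold and 1.94-fold, Pola2 1.67-fold and 1.39-fold, Prim1 1.54-fold and 2.07-fold, and Prim2 1.41-fold and 1.52-fold.

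**Figure D4:**
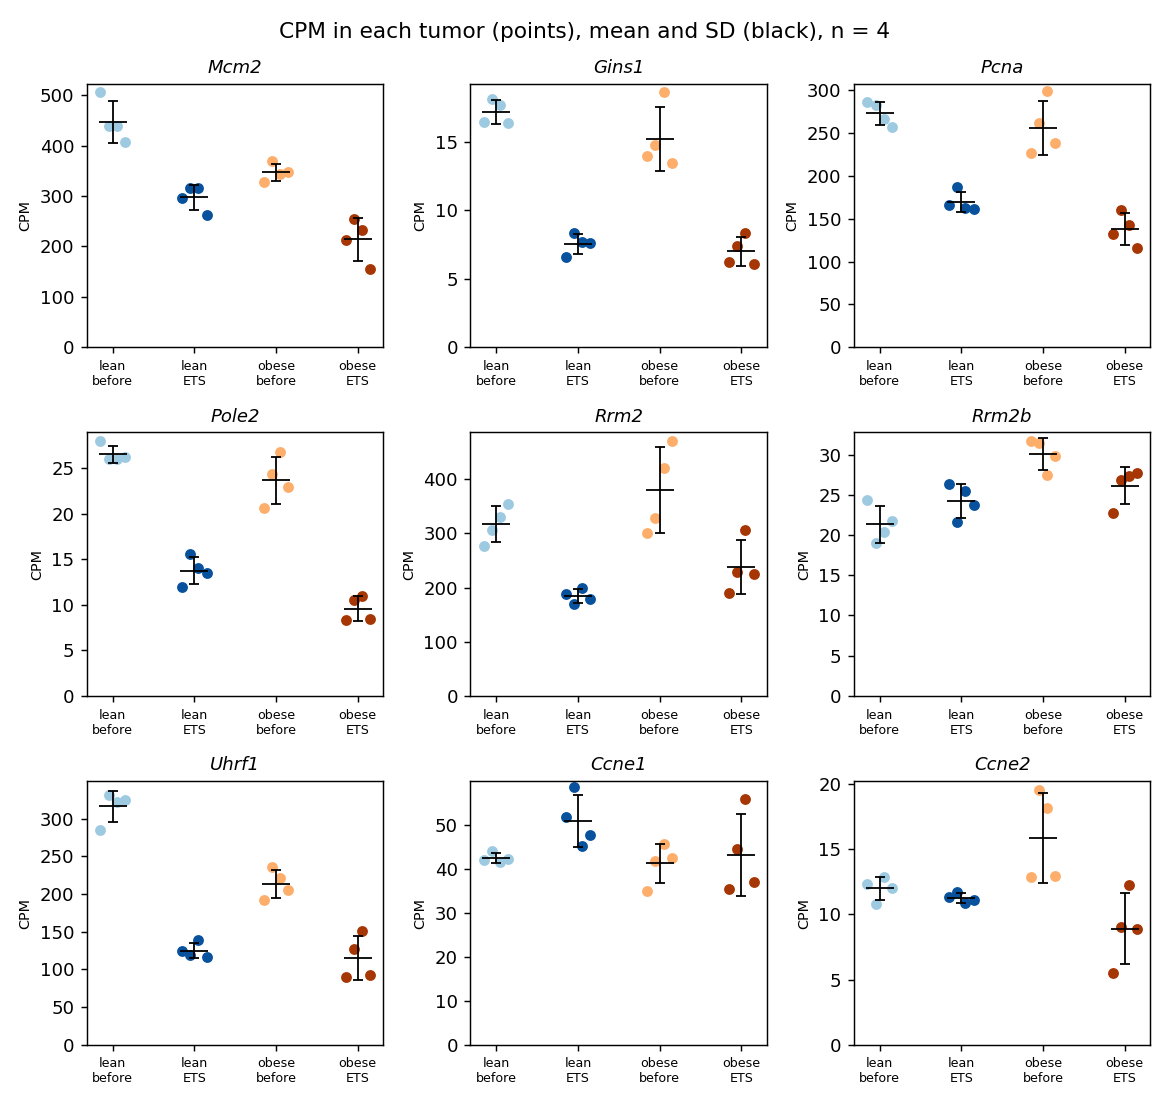
CPM of 9 members in each tumor (points) with the mean and SD of each group (black, n = 4), on axes that start at 0. Treated tumors lie below untreated ones of their host for Mcm2, Gins1, Pcna, Pole2 and Uhrf1. Rrm2b and Ccne1 were not called after ETS in either host, although all treated lean tumors lie above the untreated ones for Ccne1. Before therapy, Rrm2b is higher in all obese tumors than in all lean ones.

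Among the genes of Okazaki fragments and single-stranded DNA, 3 of 4 fell in each host. Lig1, the ligase that seals the fragments, had 163, 145, 157 and 153 CPM in the lean tumors before therapy and 83.0, 96.7, 92.3 and 82.5 CPM in those after ETS. Lig1 in obese tumors had 124, 128, 104 and 111 CPM before therapy and 65.8, 87.3, 76.3 and 56.6 CPM after ETS. Treated and untreated tumors did not overlap in either host. Lig1 fell 1.75-fold in lean tumors (log2 fold change -0.80 ± 0.11, adjusted p = 9.87e-05) and 1.63-fold in obese tumors (log2 fold change -0.71 ± 0.11, adjusted p = 0.000341). Rpa1, the large subunit of the protein that coats single-stranded DNA in replication and repair alike, had 318, 245, 246 and 268 CPM in the lean tumors before therapy and 266, 272, 239 and 213 CPM in those after ETS. Rpa1 in obese tumors had 259, 249.5, 228 and 271 CPM before therapy and 213, 229, 217 and 175 CPM after ETS. The treated lean tumors fell inside the untreated range except tumors 3 and 4, which were lower, and in obese tumors the treated group reached from well below the untreated range to its lower edge. Neither effect passed the test, with log2 fold change -0.12 ± 0.11, adjusted p = 0.390 in lean and log2 fold change -0.28 ± 0.11, adjusted p = 0.0588 in obese tumors. Fen1, the flap nuclease, fell 1.39-fold and 1.33-fold, and Rpa2, the middle subunit of the coat, fell 1.26-fold and 1.33-fold, with its lean call kept in 16 of 26 settings.

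Nucleotide supply was split between its members, with 3 of 5 lower in lean tumors and 4 of 5 in obese tumors. Rrm2 (Entrez 20135, chr12:24708254-24714146, plus strand), the small subunit of ribonucleotide reductase used in S phase, had 276, 306, 329.9 and 355 CPM in the lean tumors before therapy and 189, 170.1, 199 and 179 CPM in those after ETS. Rrm2 in obese tumors had 301, 328, 422 and 471 CPM before therapy and 190.2, 228, 307 and 226 CPM after ETS. Its lean tumors separated fully by treatment, and in obese tumors the treated tumor 3 reached into the untreated range. Rrm2 fell 1.72-fold in lean (log2 fold change -0.78 ± 0.15, adjusted p = 0.00103) and 1.60-fold in obese tumors (log2 fold change -0.68 ± 0.15, adjusted p = 0.00313).

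Rrm2b (Entrez 382985, chr15:37923952-37961119, minus strand), the other small subunit, which is induced by p53 and serves repair outside S phase, had 24.4, 19.0, 20.4 and 21.7 CPM in the lean tumors before therapy and 26.4, 21.6, 25.4 and 23.7 CPM in those after ETS. Rrm2b in obese tumors had 31.7, 31.4, 27.4 and 29.8 CPM before therapy and 22.7, 26.9, 27.3 and 27.7 CPM after ETS. Lean treated and untreated tumors overlapped, and the obese treated tumors lay under the untreated range except for tumor 4 at its edge. Rrm2b was called in neither host (log2 fold change 0.19 ± 0.10, adjusted p = 0.140 in lean, which turned to -0.17 with log2(TPM + 1), and log2 fold change -0.20 ± 0.10, adjusted p = 0.113 in obese tumors), nor did the difference between these effects pass (0.39 ± 0.14 on the log2 scale, adjusted p = 0.0707). In TPM, the ratio of Rrm2b to Rrm2 was 0.0329 ± 0.0063 in untreated and 0.0635 ± 0.0030 in treated lean tumors (SD, n = 4), with ranges of 0.0294 to 0.0423 and 0.0611 to 0.0676. In obese tumors it was 0.0399 ± 0.0104 and 0.0545 ± 0.0077, with ranges of 0.0306 to 0.0510 and 0.0431 to 0.0594. The ranges were apart in lean tumors and overlapped in obese tumors. Rrm1, the large subunit that pairs with either, had log2 fold change -0.29 ± 0.13, adjusted p = 0.0884 in lean tumors and fell 1.48-fold in obese tumors (log2 fold change -0.56 ± 0.13, adjusted p = 0.00444).

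Tyms, which makes thymidylate and is the target of fluorouracil, had 70.8, 65.1, 69.0 and 69.3 CPM in the lean tumors before therapy and 43.3, 45.2, 45.3 and 46.0 CPM in those after ETS. Tyms in obese tumors had 68.0, 75.3, 77.8 and 58.3 CPM before therapy and 34.7, 45.2, 36.3 and 28.1 CPM after ETS. The treated tumors of each host were all below the untreated ones, with a tight range in the lean treated group. Tyms fell 1.53-fold in lean tumors (log2 fold change -0.61 ± 0.12, adjusted p = 0.000946) and 1.94-fold in obese tumors (log2 fold change -0.95 ± 0.12, adjusted p = 5.57e-05). A processed copy, Tyms-ps, is listed in the table as well. Tk1, the salvage kinase of S phase, fell 1.56-fold and 1.66-fold.

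Both genes of maintenance methylation fell in both hosts. Uhrf1 (Entrez 18140, chr17:56303337-56323486, plus strand), which reads newly copied, hemimethylated DNA, had 285, 331, 323 and 325 CPM in the lean tumors before therapy and 124, 119.6, 139 and 117 CPM in those after ETS. Uhrf1 in obese tumors had 192, 236, 221 and 205 CPM before therapy and 90.4, 127, 151 and 92.2 CPM after ETS. All treated tumors lay below all untreated ones, and before therapy the obese tumors were all below the lean tumors. Uhrf1 fell 2.53-fold in lean tumors (log2 fold change -1.34 ± 0.14, adjusted p = 8.87e-06), the smallest adjusted p of any member there, and 1.85-fold in obese tumors (log2 fold change -0.89 ± 0.14, adjusted p = 0.000254), and the difference between these effects was -0.45 ± 0.20 on the log2 scale, adjusted p = 0.133. Dnmt1, the methyltransferase that Uhrf1 recruits, fell 1.88-fold and 1.49-fold.

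The E2F and cyclin E group was mixed. E2f7 and E2f8, the repressors of the E2F family, fell in both hosts, E2f2, an activator, fell in lean tumors, Ccne2 fell in obese tumors, and E2f1 and Ccne1 were called in neither. E2f7 had 11.9, 13.9, 17.3 and 17.1 CPM in the lean tumors before therapy and 7.97, 7.57, 7.39 and 8.12 CPM in those after ETS. E2f7 in obese tumors had 13.7, 15.5, 16.8 and 17.5 CPM before therapy and 5.44, 6.63, 9.86 and 8.20 CPM after ETS. The treated tumors stayed below the untreated ones in both hosts, with a narrow lean treated group. It fell 1.94-fold in lean (log2 fold change -0.95 ± 0.17, adjusted p = 0.000562) and 2.11-fold in obese tumors (log2 fold change -1.07 ± 0.17, adjusted p = 0.000308).

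E2f8 had 26.8, 31.8, 33.7 and 35.6 CPM in the lean tumors before therapy and 16.9, 15.2, 14.6 and 14.2 CPM in those after ETS. E2f8 in obese tumors had 18.5, 22.8, 27.3 and 24.3 CPM before therapy and 14.6, 16.6, 20.3 and 12.1 CPM after ETS. Lean tumors separated fully, and obese tumor 3 after ETS lay inside the untreated range of its host. The fall was 2.098-fold in lean tumors (log2 fold change -1.07 ± 0.15, adjusted p = 9.77e-05) and 1.46-fold in obese tumors (log2 fold change -0.54 ± 0.15, adjusted p = 0.0108). E2f1, the best known activator of the family, had 64.2, 60.4, 53.8 and 61.1 CPM in the lean tumors before therapy and 46.7, 65.0, 40.6 and 45.0 CPM in those after ETS. E2f1 in obese tumors had 47.0, 44.8, 48.5 and 47.5 CPM before therapy and 41.2, 44.5, 39.1 and 35.0 CPM after ETS. The lean treated tumor 2 was above all untreated ones and the other 3 were below all of them, and obese treated tumors were below the untreated ones. Neither effect on E2f1 was called (log2 fold change -0.28 ± 0.12, adjusted p = 0.0714 in lean and log2 fold change -0.23 ± 0.12, adjusted p = 0.137 in obese tumors), and E2f2 fell 1.54-fold in lean tumors (log2 fold change -0.62 ± 0.18, adjusted p = 0.0101) and had log2 fold change -0.38 ± 0.18, adjusted p = 0.0987 in obese tumors.

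Ccne1, a cyclin that activates Cdk2 at the entry into S phase, had 42.1, 44.1, 41.6 and 42.2 CPM in the lean tumors before therapy and 51.7, 58.6, 45.2 and 47.7 CPM in those after ETS. Ccne1 in obese tumors had 35.0, 41.9, 45.6 and 42.5 CPM before therapy and 35.4, 44.4, 55.7 and 37.0 CPM after ETS. Every lean tumor after ETS was above every lean tumor before therapy, the only member for which this held, where it held for 20.8% of all tested genes, and the obese groups overlapped. The effects did not pass (log2 fold change 0.26 ± 0.13, adjusted p = 0.117 in lean and log2 fold change 0.065 ± 0.13, adjusted p = 0.726 in obese tumors), and with log2(TPM + 1) the values turned to -0.12 and -0.043. Ccne2, the second cyclin of this kind, had 12.3, 10.8, 12.9 and 12.0 CPM in the lean tumors before therapy and 11.3, 11.7, 10.9 and 11.1 CPM in those after ETS. Ccne2 in obese tumors had 12.9, 19.5, 18.2 and 13.0 CPM before therapy and 5.48, 9.04, 12.2 and 8.91 CPM after ETS. The lean groups overlapped within a narrow range, and the obese tumors before therapy were spread upward and those after ETS downward, with no overlap between them. Ccne2 had log2 fold change -0.092 ± 0.20, adjusted p = 0.729 in lean tumors and fell 1.78-fold in obese tumors (log2 fold change -0.83 ± 0.20, adjusted p = 0.00428), but the difference between these effects did not pass (0.74 ± 0.28 on the log2 scale, adjusted p = 0.0820). In TPM, Ccne2 over Ccne1 went from 0.184 ± 0.0179 to 0.146 ± 0.0112 in lean tumors and from 0.252 ± 0.0433 to 0.134 ± 0.0241 in obese tumors (SD, n = 4).

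The size of the falls was then compared between the hosts. The difference of both effects (lean minus obese) was tested, and 2 of 48 members were called. Both had the larger fall in obese tumors. Of all tested genes 6.35% were called with a higher difference, a more positive change after ETS in lean tumors, and 10.1% with a lower one, or 16.4% in either direction. The 2 members were Rfc4 (0.57 ± 0.18 on the log2 scale, adjusted p = 0.0384) and Pold2 (0.55 ± 0.18 on the log2 scale, adjusted p = 0.0440). The median difference over the members was 0.078, next to 0.052 over all genes. Neither call held in every setting, and each was kept in 11 of 24. At an unadjusted p under 0.05, 10 members were higher and 3 lower in this difference, where 14.7% of all tested genes were higher and 15.4% lower. The 3 lower ones, with the larger fall in lean tumors, were Uhrf1, E2f8 and Pole (-0.60 ± 0.21 on the log2 scale, adjusted p = 0.0657). The count of members called higher was 0 without any of lean tumors 2, 3 or 4 before therapy, lean tumor 1 after ETS, obese tumors 2, 3 or 4 before therapy or obese tumors 1 or 4 after ETS, 1 without lean tumor 2 after ETS and 4 without lean tumor 1 before therapy. Of all tested genes, the fits with 0 members called 594 to 981 higher, beside 1030 with all 16 tumors. The fit without lean tumor 1 before therapy called 1370 higher.

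Before therapy, obese tumors held less of some members than lean tumors. The test called 12 of the 48 lower in obese tumors, where it called 12.9% of all tested genes lower, and 1 higher, where it called 13.5% of all genes higher. The 12 were Mcm2, Mcm4, Mcm6, Cdc6, Mcm10, Pola2, Pold1, Pole, Lig1, Uhrf1, E2f1 and E2f8, with the largest difference in Uhrf1, 1.48-fold lower (log2 fold change -0.57 ± 0.14, adjusted p = 0.00716). Rrm2b was the member called higher, by 1.41-fold (log2 fold change 0.50 ± 0.10, adjusted p = 0.00191), with all 4 obese tumors at 27.4 CPM or more and all 4 lean ones at 24.4 CPM or less. The call on Rrm2b was lost with log2(TPM + 1) and log2(TPM + 0.1) and kept in 24 of 26 settings. Markers of the grafted line and of host cells differed in the same comparison. In obese tumors before therapy, 6 of 10 melanocyte markers, 8 of 10 macrophage markers and 4 of 8 endothelial markers were lower and none was higher. Their median log2 fold changes were -0.73, -3.09 and -0.89. Of 9 tested fibroblast markers, 1 was lower and none was higher. Erythroid markers went the other way, with sums of 859 to 13061 CPM in obese and 108 to 481 CPM in lean tumors. The part of all these cells in the lower members was not tested. The number of members called lower was 5 without lean tumor 2, 7 without lean tumor 3 or 4, 7 without obese tumor 1, 6 without obese tumor 3 and 4 without obese tumor 4, all before therapy.

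After ETS, 5 members were lower in obese than in lean tumors and none was higher, where 2.30% of all tested genes were called lower and 3.28% higher. They were Mcm2 (log2 fold change -0.48 ± 0.12, adjusted p = 0.0404), Mcm6 (log2 fold change -0.47 ± 0.12, adjusted p = 0.0393), Rfc5 (log2 fold change -0.57 ± 0.11, adjusted p = 0.0157), Pold2 (log2 fold change -0.58 ± 0.13, adjusted p = 0.0200) and Pole2 (log2 fold change -0.52 ± 0.12, adjusted p = 0.0239). At an unadjusted p under 0.05, 23 members were lower and 1, Rrm2, was higher (log2 fold change 0.37 ± 0.15, adjusted p = 0.149), where 11.6% of all tested genes were lower and 13.5% higher. DESeq2 called 9 members lower and 0 higher, where it called 5.79% of all tested genes lower and 6.88% higher. The median over members was -0.25, beside 0.0016 over all genes. The number called lower was 13 without obese tumor 2 and 9 without obese tumor 3 after ETS, 3 without lean tumor 1 or obese tumor 1 after ETS or lean tumor 2 before therapy, and 2 without lean tumor 2, 3 or 4 or obese tumor 4 after ETS. It was 0 in a fit of only these 8 tumors.

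Tumors of a group differed in how many members were highest or lowest in them, with the widest spread in obese tumors after ETS. The summed CPM of the 48 members was 5096 to 5371 in lean tumors before therapy, 3067 to 3584 in lean tumors after ETS, 4292 to 4823 in obese tumors before therapy and 2422 to 3304 in obese tumors after ETS. In the obese ETS group, tumor 3 was the highest for 25 members and tumor 2 for 22, while tumor 4 was the lowest for 30 and tumor 1 for 18. In lean tumors before therapy no such order was seen, as tumor 1 was the highest for 19 members and the lowest for 13. In lean tumors after ETS, tumor 2 was the highest for 26 members and tumor 4 the lowest for 27. In obese tumors before therapy, tumor 2 was the highest for 22 and tumor 1 the lowest for 27. In the obese ETS group, macrophage, fibroblast and endothelial markers were higher in the tumors where the members were lower, and other host lists did not follow this split. Tumors 1 and 4 held 594 and 862 CPM of macrophage markers against 320 and 356 CPM in tumors 2 and 3, and 2027 and 5921 CPM of fibroblast markers against 1023 and 678 CPM. Endothelial markers summed to 361 and 228 CPM in tumors 1 and 4 against 213 and 170 CPM. Adipocyte markers did not follow this split, at 289 and 85.9 CPM against 119 and 153 CPM. Erythroid markers were at 1.34 and 15.2 CPM against 3.23 and 38.4 CPM. Muscle markers were high in tumor 2 alone, at 466 CPM. In lean tumors after ETS, macrophage and fibroblast markers were instead higher in tumor 2, at 391 and 643 CPM, than in tumor 4, at 47.7 and 191 CPM. Endothelial markers there summed to 146 and 157 CPM. In obese tumors before therapy, tumor 2 held 188, 687 and 151 CPM of macrophage, fibroblast and endothelial markers. Tumor 1 of that group held 63.5, 108 and 115 CPM. The part of these cells in the order of the tumors was not tested. The median coefficient of variation over the members was 6.73% in lean tumors before therapy, 9.56% in lean tumors after ETS, 9.89% in obese tumors before therapy and 17.98% in obese tumors after ETS. All members of a tumor share its library and its scaling, so these ranks describe tumors and not 48 separate observations.

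Other gene lists with related roles showed where the fall reached. Of 36 other replication genes, 27 fell after ETS in the lean host and 30 in the obese host, with 1 rise in each. Among them were Cdc7, the kinase that fires origins, at -1.30 ± 0.21 and Atad5, which unloads PCNA, at -1.25 ± 0.23 in lean tumors, and Nasp, a histone chaperone, at -1.34 ± 0.15 and Dscc1, a subunit of an alternative clamp loader, at -1.18 ± 0.15 in obese tumors (log2 fold change). All 30 mitosis genes fell in both hosts, with median log2 fold changes of -0.78 and -0.92. The proliferation marker Mki67 fell 3.07-fold in lean mice and 3.24-fold in obese tumors. The condensin subunit Smc4 fell 3.01-fold and 3.64-fold.

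Nucleotide metabolism outside the fork was mixed. Of 26 other nucleotide genes, 10 fell against 2 that rose in the lean host, and 14 fell against 1 in the obese host, with medians of -0.19 and -0.30. The largest changes in obese tumors were in Dut, which keeps uracil out of DNA, at -1.19 ± 0.13 and in Mthfd2, a mitochondrial folate enzyme, at -1.08 ± 0.20, and in lean tumors in Samhd1 and in Pfas, an enzyme of purine synthesis, at -1.25 ± 0.24. Samhd1, which breaks down the dNTPs that ribonucleotide reductase helps to make, had 173, 223, 138 and 182 CPM in the lean tumors before therapy and 46.7, 50.2, 41.6 and 33.3 CPM in those after ETS. Samhd1 in obese tumors had 46.2, 48.9, 40.0 and 40.6 CPM before therapy and 48.6, 52.2, 55.2 and 69.0 CPM after ETS. Only the lean tumors before therapy were high, and the other 3 groups lay between 33.3 and 69.0 CPM. It fell 4.16-fold in lean tumors (log2 fold change -2.06 ± 0.16, adjusted p = 1.07e-06) and was at 0.36 ± 0.15 in obese tumors (adjusted p = 0.0738), and the difference between the effects was -2.42 ± 0.22 on the log2 scale, adjusted p = 1.07e-05. The summed macrophage markers given further on also had their highest group mean in lean tumors before therapy. Their 328 to 1036 CPM there overlapped the 320 to 862 CPM of obese tumors after ETS, where Mrc1 and Cd14 were highest. T, NK and B cell markers summed to 24.1 to 46.6 CPM in lean tumors before therapy and to 1.40 to 4.04 CPM elsewhere. The part of these cells in the Samhd1 values was not tested.

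Of 19 tested genes around E2F and RB outside the members, 8 were lower and 3 higher after ETS in lean mice, and 10 lower and 4 higher in obese mice. Ccnd1, the cyclin that acts before cyclin E, had 255, 239.7, 205 and 248 CPM in the lean tumors before therapy and 628, 631, 538 and 488 CPM in those after ETS. Ccnd1 in obese tumors had 174, 218, 185 and 145 CPM before therapy and 561, 584, 597 and 509.6 CPM after ETS. All treated tumors were above all untreated ones in both hosts. Ccnd1 rose 2.41-fold in lean (log2 fold change 1.27 ± 0.12, adjusted p = 5.26e-06) and 3.11-fold in obese tumors (log2 fold change 1.64 ± 0.13, adjusted p = 4.78e-06), whereas Rbl1, an RB relative, fell 2.37-fold in lean tumors and Ccna2, the cyclin of S phase and G2, fell 2.30-fold in obese tumors.

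Targets of p53 rose where the replication genes fell. Of 17 tested targets outside the members, 16 were higher after ETS in lean mice and 14 in obese mice, with 0 lower in either and median log2 fold changes of 1.23 and 0.86. Cdkn1a, which encodes the Cdk inhibitor p21, had 146, 108, 58.8 and 135 CPM in the lean tumors before therapy and 1232, 1472, 1073 and 1078 CPM in those after ETS. Cdkn1a in obese tumors had 561, 467, 467 and 584 CPM before therapy and 1349.7, 1261, 1178 and 1217 CPM after ETS. The untreated obese tumors lay above the untreated lean ones and below all treated tumors. Cdkn1a rose 10.9-fold in lean tumors (log2 fold change 3.44 ± 0.23, adjusted p = 3.44e-07) and 2.41-fold in obese tumors (log2 fold change 1.27 ± 0.21, adjusted p = 0.000376), and the difference was 2.17 ± 0.29 on the log2 scale, adjusted p = 0.000185. The target Eda2r rose 8.70-fold in lean and 5.71-fold in obese tumors and Ddit4l rose 3.13-fold in obese tumors. The members Pcna, E2f7 and Rrm2b are also known p53 targets, and as given above Pcna and E2f7 fell and Rrm2b was not called. Before therapy, 10 of the 17 targets were higher in obese tumors and none was lower, in the same comparison in which Rrm2b was higher and 12 members were lower. A link between these differences was not tested.

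**Figure D5:**
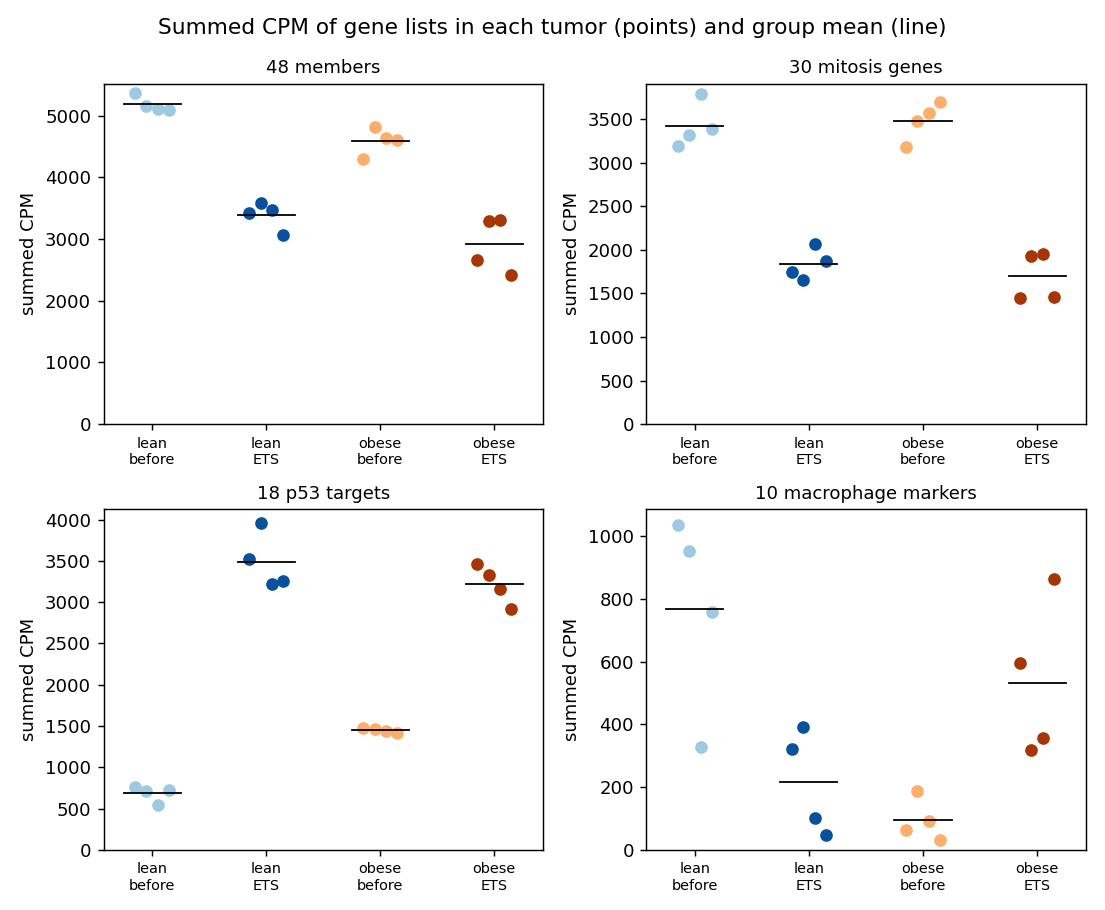
Summed CPM of the 48 members, 30 mitosis genes, 18 p53 targets and 10 macrophage markers in each tumor (points) with the group mean (line), on axes that start at 0. Members and mitosis genes are lower after ETS in both hosts, p53 targets are higher, and the macrophage markers go down in lean and up in obese tumors.

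The markers of the grafted line and of host cells were read beside these values. Summed over 10 melanocyte markers, tumors held 19513 to 24864 CPM in the lean group before therapy and 24684 to 28592 CPM in the lean group after ETS. The obese group had 11730 to 16010 CPM before therapy and 11341 to 26955 CPM after ETS. Of the 10 markers, 2 were higher after ETS in lean mice and 4 in obese mice, with none lower. Of 10 macrophage markers, 7 were lower after ETS in lean mice and 8 higher in obese mice, with sums of 328 to 1036, 47.7 to 391, 30.5 to 188 and 320 to 862 CPM in the same order of groups. Of 9 tested fibroblast markers, 5 were lower in lean and 9 higher in obese mice, with sums of 572 to 2320, 111 to 643, 108 to 687 and 678 to 5921 CPM. Of 8 endothelial markers, 2 fell in lean and 7 rose in obese tumors. Called macrophage, fibroblast and endothelial markers were thus lower after ETS in the lean host and higher in the obese one, while the replication genes fell in both. Their part in the size of the falls was not tested.

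T, NK and B cell markers summed to 24.1 to 46.6 CPM in lean tumors before therapy and to 1.40 to 4.04 CPM in the other groups, and 1 of the 11, the B cell marker Cd79a, could be tested. Cd79a rose after ETS in both hosts, against the direction of the sum in lean mice (log2 fold change 1.62 ± 0.26, adjusted p = 0.000232 in lean and log2 fold change 0.72 ± 0.25, adjusted p = 0.0347 in obese mice). Erythroid markers summed to 859 to 13061 CPM in obese tumors before therapy, 108 to 481 CPM in lean tumors before therapy and at most 38.4 CPM in the treated groups. Of 3 tested adipocyte markers, 2 fell in lean and 2 rose in obese tumors. Muscle markers exceeded 100 CPM in lean tumor 2 before therapy, lean tumors 1 and 2 after ETS and obese tumor 2 after ETS. Without these 4 tumors, a choice made after seeing the data, 37 members were lower in lean and 42 in obese tumors, 0 differed between the hosts' effects, 7 were lower and 1 was higher in obese tumors before therapy, and 0 differed after ETS. Calls over all tested genes fell too, from 3689 to 1532 lower in lean and from 3079 to 2390 lower in obese tumors. They fell from 2660 to 1501 in the difference, from 4280 to 3185 before therapy and from 904 to 312 after ETS.

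The members with the longer E2F letters in their promoters fell in nearly every case, as did most of the others. All 13 were called lower in lean tumors and 12 of 13 in obese tumors, with medians of -0.80 and -0.76 on the log2 scale. Of the 25 members in the promoter table without these letters, 21 were lower in lean and 22 in obese tumors, with medians of -0.62 and -0.69. These are counts with no test, since genes are not replicates.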

How the data were processed

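RNA of 16 B16F10 tumors had been sequenced from poly(A)-selected, stranded libraries. The authors aligned the reads to mm10 with HISAT2 2.1.0 and quantified genes with StringTie 2.1.3b (bcl2fastq 2.20.0 and Trimmomatic are also named in the submitters' processing notes), and whether counting used the strand is not given in the sources used here. The deposited read counts are whole numbers per gene, not normalized. The deposited TPM values were used for levels between genes and as an alternative, and the deposited FPKM values were used for no result. The table holds no columns of other samples (0 found).

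As the study's methods describe, genes at 0 in 1 or more tumors (29568) were left out. Tests used TMM scaling and edgeR 4.0.16 (R 4.3.3), quasi-likelihood F test, in a fit of all 16 tumors with a mean per group, and Benjamini-Hochberg adjustment over 16209 genes with a call at an adjusted p under 0.05. This replaced the exact test of the study, which was run as an alternative. CPM are TMM-scaled. Labels do not say whether tumors of a group came from separate mice, so p-values measure the spread between these tumors. Common BCV was 0.233, and tumors of a group correlated at 0.970 to 0.992.

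The members and lists were chosen with earlier results of these data known. Values of every tumor were printed for the member of each role with the smallest adjusted p in lean tumors, obese tumors and their difference, and for Rrm2, Rrm2b, Pcna, Cdt1, Gmnn, Ccne1, Ccne2, E2f1, E2f7, E2f8 and Mcm2, and for other lists the 2 genes with the largest change at a mean of at least 1 CPM. Tumor values of Samhd1, Ccnd1 and Cdkn1a were added after they were seen. Promoters came from RefSeq (GRCm38.p6) and coordinates from the gene table of that build. By annotation 25 of 48 members overlap another gene, 20 of them on the opposite strand (Rfc4 with Eif4a2, Orc6 with Vps35, Ccne2 with Ints8), and such reads could not be told apart if strand was not used. Alternatives used DESeq2 1.42.0 and limma 3.58.1.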

Additional observations from a re-analysis of the deposited data

Results flagged for a closer look

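Among the 22 members with values of every tumor, 88 groups of 4 were examined for a tumor that stands apart, and 2 were found where chance gives about 1 in 20 groups, or 4.4. Pole2 in lean tumors before therapy was highest in tumor 1, whose gap to the nearest other tumor was 0.886 of the group's range (27.9 CPM against 26.0 to 26.2 CPM). Rrm2b in obese tumors after ETS was lowest in tumor 1, with a gap of 0.859 of the range (22.7 CPM against 26.9 to 27.7 CPM).

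For 2 members the effect of ETS differed between lean and obese tumors by the test of the difference itself, where 16.4% of all tested genes were called, 6.35% in the same direction. Rfc4 differed by 0.57 ± 0.18 on the log2 scale, adjusted p = 0.0384 and Pold2 by 0.55 ± 0.18 on the log2 scale, adjusted p = 0.0440, lean minus obese, so both fell further in obese tumors, and each call was kept in 11 of 24 alternative settings.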

How the results depend on the processing

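Results were recomputed with size factors of DESeq2, keeping genes with zeros, with filterByExpr, with DESeq2, with edgeR's exact test on counts + 1, with limma on log2(TPM + 1) and log2(TPM + 0.1), with only the groups compared, with a replicate block, with a 2-fold rule, without each tumor and, added after the data were seen, without the 4 tumors over 100 CPM of muscle markers. The falls kept their direction and most of their calls. Over the fits that left out 1 tumor, 37 to 42 members were lower in lean tumors and 40 to 43 in obese ones. Over the other fits on all tumors, these counts were 38 to 44 and 39 to 44. The 44 in lean tumors came from log2(TPM + 1) and log2(TPM + 0.1). Of all tested genes, 7281 and 7299 were lower in lean tumors in these settings, beside 3689 in the first fit. In obese tumors they were 3333 and 3322, beside 3079. With the rule of 2-fold and an unadjusted p under 0.05, 4 members were lower in lean and 5 in obese tumors, beside 8.63% and 2.44% of all tested genes, and 0 were called in the difference, before therapy or after ETS. Members higher in lean tumors were 1 with the exact test and 1 with only the groups compared, and 0 to 1 when tumors were left out.

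For the difference between the effects, members higher were 0 with log2(TPM + 1), 0 with log2(TPM + 0.1), 0 without the muscle-rich tumors and 0 to 4 when tumors were left out, and members lower were 1 with DESeq2, 1 with log2(TPM + 1) and 0 to 2 when tumors were left out. Of all tested genes, 228, 225 and 300 were higher in the 3 settings with 0 members, beside 1030 in the first fit. Before therapy, members lower in obese tumors were 19 with the exact test, 19 with log2(TPM + 1), 7 without the muscle-rich tumors and 4 to 18 when tumors were left out, and members higher were 0 with both TPM settings and 1 to 2 when tumors were left out. Of all tested genes, 2560, 2765 and 1801 were lower in the first 3 of these settings, beside 2099 in the first fit. After ETS, members lower in obese tumors were 3 when genes with zeros were kept, 9 with DESeq2, 2 with the exact test, 2 with log2(TPM + 1), 2 with log2(TPM + 0.1), 0 with only the groups compared, 0 without the muscle-rich tumors and 2 to 13 when tumors were left out. Of all tested genes, 16 were lower with only the groups compared and 69 without the muscle-rich tumors, beside 373 in the first fit of all 16 tumors. The shorter E2F letters matched 25 members in place of 13. The causes of these changes were not tested, beyond the fewer tumors in some fits.

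With the replicate block, 4 members differed between the effects and 12 were lower in obese tumors after ETS, and no other count of calls moved by over 1.5 times. Of all tested genes, 3087 differed between the effects and 801 were lower after ETS with the block, beside 2660 and 373 without it. Same-numbered tumors correlated at -0.046 to 0.452 in their deviations, over 0.1 in 7 of 16 pairs, and 6 of 16 tumors correlated best with their own number, so the numbers were not taken to pair tumors.

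With log2(TPM + 1), the median of all tested genes moved to -0.28 in lean tumors, and the share of called genes that were higher went from 48.03% to 15.7% in lean tumors, from 38.7% to 9.24% in the difference, from 50.96% to 28.96% before therapy and from 58.7% to 83.8% after ETS. Values that changed sign with log2(TPM + 1) and log2(TPM + 0.1) were those of Gins4 (-0.21 and -0.21), Rrm2b (-0.17 and -0.19) and Ccne1 (-0.12 and -0.12) in lean tumors, Ccne1 in obese tumors (-0.0431 and -0.0449) and Rpa1 in the difference (-0.13 and -0.13). Ccne1 in obese tumors also changed sign without obese tumor 1 before therapy or obese tumor 3 after ETS, with a range of -0.083 to 0.17 over the fits that left out 1 tumor. None of these values had been called.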
